A study of Mus musculus with 19 samples.

Results

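Myosin heavy chains are the motor proteins of the thick filament, and the mixture of their isoforms sets how fast a muscle fiber contracts. The members are 8 genes that the array annotation names Myh1, Myh2, Myh3, Myh4, Myh6, Myh7, Myh7b and Myh8, out of 30214 named genes with a probe. They have 13 of the 39429 distinct probes on the array, and 12 of these were among the 32026 probes tested, which stand for 24741 named genes. The probe not tested, Myh8 probe 2970, was well above background on 0 of 19 arrays.

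RNA of quadriceps muscle from male C57Bl6J mice, 180 days old, was read on 19 arrays. The groups are 5 arrays of wild type mice on the normal diet (CTR-NCD), 5 of AR113Q mice on that diet (AR113Q-NCD), 4 of wild type mice on the high fat diet (CTR-HFD) and 5 of AR113Q mice on it (AR113Q-HFD), with the diets begun at 40 days of age. AR113Q is a knock-in allele of the androgen receptor gene with an expanded polyglutamine tract, a mouse model of spinal and bulbar muscular atrophy, so the mutant receptor is made wherever the mouse's own gene is active, and the wild type controls carry no knock-in allele. The labels do not say that each sample came from a mouse of its own, so the p-values measure the spread between these samples, and the number of arrays limits the precision.

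In limb muscle of adult mice, Myh7 makes the chain of slow, oxidative type I fibers, Myh2 that of type IIa, Myh1 that of type IIx, and Myh4 that of the fastest and most glycolytic type IIb fibers. Myh3 and Myh8 are the embryonic and perinatal chains, used while muscle forms and again while it regenerates. Myh6 makes the alpha chain of the heart, and Myh7b is a slow-tonic chain of ancient origin. Quadriceps samples hold many cell types, and fewer cells of a type and less RNA per cell cannot be told apart in them.

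The fast and developmental genes lie side by side on chromosome 11 in the order Myh3, Myh2, Myh1, Myh4 and Myh8, from chr11:67078273-67102291 for Myh3 to chr11:67277124-67308634 for Myh8 in GRCm38.p6. Myh6 (chr14:54941921-54968017) and Myh7 (chr14:54970684-54994626) are neighbours on chromosome 14, and Myh7b is at chr2:155611243-155634307. All 8 members had an entry in the RefSeq promoter table of that build, with 9 windows of 250 bases before to 50 after a start, 2 of them for Myh7.

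Promoter stretches of 4 neighbouring genes are shown because these genes include the members with calls, Myh4 and Myh8, and share runs of letters with each other. All are from RefSeq, GRCm38.p6, + strand, at chr11:67170842-67170930 (Myh2), chr11:67199871-67199970 (Myh1), chr11:67237610-67237682 (Myh4) and chr11:67277005-67277098 (Myh8). Capitals mark the letters TTCTAATTATATCC in all 4 and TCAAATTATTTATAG in Myh1, Myh4 and Myh8.
Myh2: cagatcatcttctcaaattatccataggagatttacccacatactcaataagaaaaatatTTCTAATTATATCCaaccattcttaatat
Myh1: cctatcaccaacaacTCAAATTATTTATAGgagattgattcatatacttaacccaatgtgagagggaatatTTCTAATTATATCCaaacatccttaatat
Myh4: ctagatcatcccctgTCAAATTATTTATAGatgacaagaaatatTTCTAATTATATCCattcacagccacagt
Myh8: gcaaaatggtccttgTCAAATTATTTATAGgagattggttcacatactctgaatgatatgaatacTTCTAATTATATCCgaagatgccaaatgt

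Of 32851 RefSeq promoters searched on both strands, TTCTAATTATATCC was in 4 (0.0122%), those of Myh1, Myh2, Myh4 and Myh8. It began 160 bases before the start in Myh1, 125 in Myh2, 158 in Myh4 and 54 in Myh8. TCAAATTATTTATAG was in 3 promoters (0.00913%), those of Myh1, Myh4 and Myh8. Both motifs were written from the members' own promoters. The letters TATAAA were in 4473 promoters (13.6%) and in those of 6 members, Myh1, Myh2, Myh3, Myh4, Myh6 and Myh8, on the other strand for Myh8. A match is a description of these letters and not a binding site.

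Each probe has 60 bases, and 3 probes of the developmental chains are shown because the Myh8 probes gave different results and because Myh8 and Myh3 resemble each other near the end of their coding sequence. Capitals mark the bases that are identical in the best ungapped overlap of the first pair, 29 of 48 bases (60.4%). Myh8 probe 5937 is at chr11:67121925-67121984, Myh3 probe 5779 at chr11:66915107-66915166 and Myh8 probe 477 at chr11:67093475-67093534 of mm9, + strand, and each probe is named by its position on its transcript.
Myh8 probe 5937: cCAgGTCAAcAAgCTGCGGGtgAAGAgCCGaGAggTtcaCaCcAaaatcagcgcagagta
Myh3 probe 5779: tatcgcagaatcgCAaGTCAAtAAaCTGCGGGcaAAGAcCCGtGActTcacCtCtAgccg
Myh8 probe 477: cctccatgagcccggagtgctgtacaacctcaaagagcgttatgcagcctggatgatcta

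Each value below is a log2 signal relative to the 75th percentile of its array, and a fold change is a difference of group means on that scale with its standard error (SE). Between 67.1% and 80.1% of probes were well above background on an array, with the lowest share on CTR-HFD replicate 4. A probe is called when limma's p-value, adjusted over all 32026 probes, is under 0.05. The question of the genotype comparisons is how the mutant receptor goes with the heavy chain mixture in each diet, and that of the diet comparisons is how the high fat diet goes with it in each genotype.

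On the normal diet, 2 of the 12 probes were called lower in AR113Q mice than in wild type mice, those of Myh4 and Myh8 probe 477, and 0 were called higher. Over all tested probes, 9.24% were called lower and 8.15% higher. At an unadjusted p under 0.05 there were 4 of the 12 probes, from 3 members, and 28.4% of all probes. The median fold change was 0.60 over the 12 probes and -0.055 over all probes, and 7 of the 12 were above 0.

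On the high fat diet, 3 of the 12 probes were called lower in AR113Q-HFD than in CTR-HFD, those of Myh4, Myh8 probe 477 and Myh8 probe 5937, and 0 were called higher. Over all tested probes, 10.1% were called lower and 7.73% higher. At an unadjusted p under 0.05 there were 3 of the 12 probes, from 2 members, and 29.2% of all probes, and the median fold change was 0.20 over the 12 probes and -0.076 over all probes. Averaged over both diets, the same 3 probes were called lower and 0 higher, against 16.2% lower and 13.0% higher of all probes. At an unadjusted p under 0.05 there were then 3 of the 12 and 38.5% of all probes. The median fold changes were 0.53 and -0.066.

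**Figure D1:**
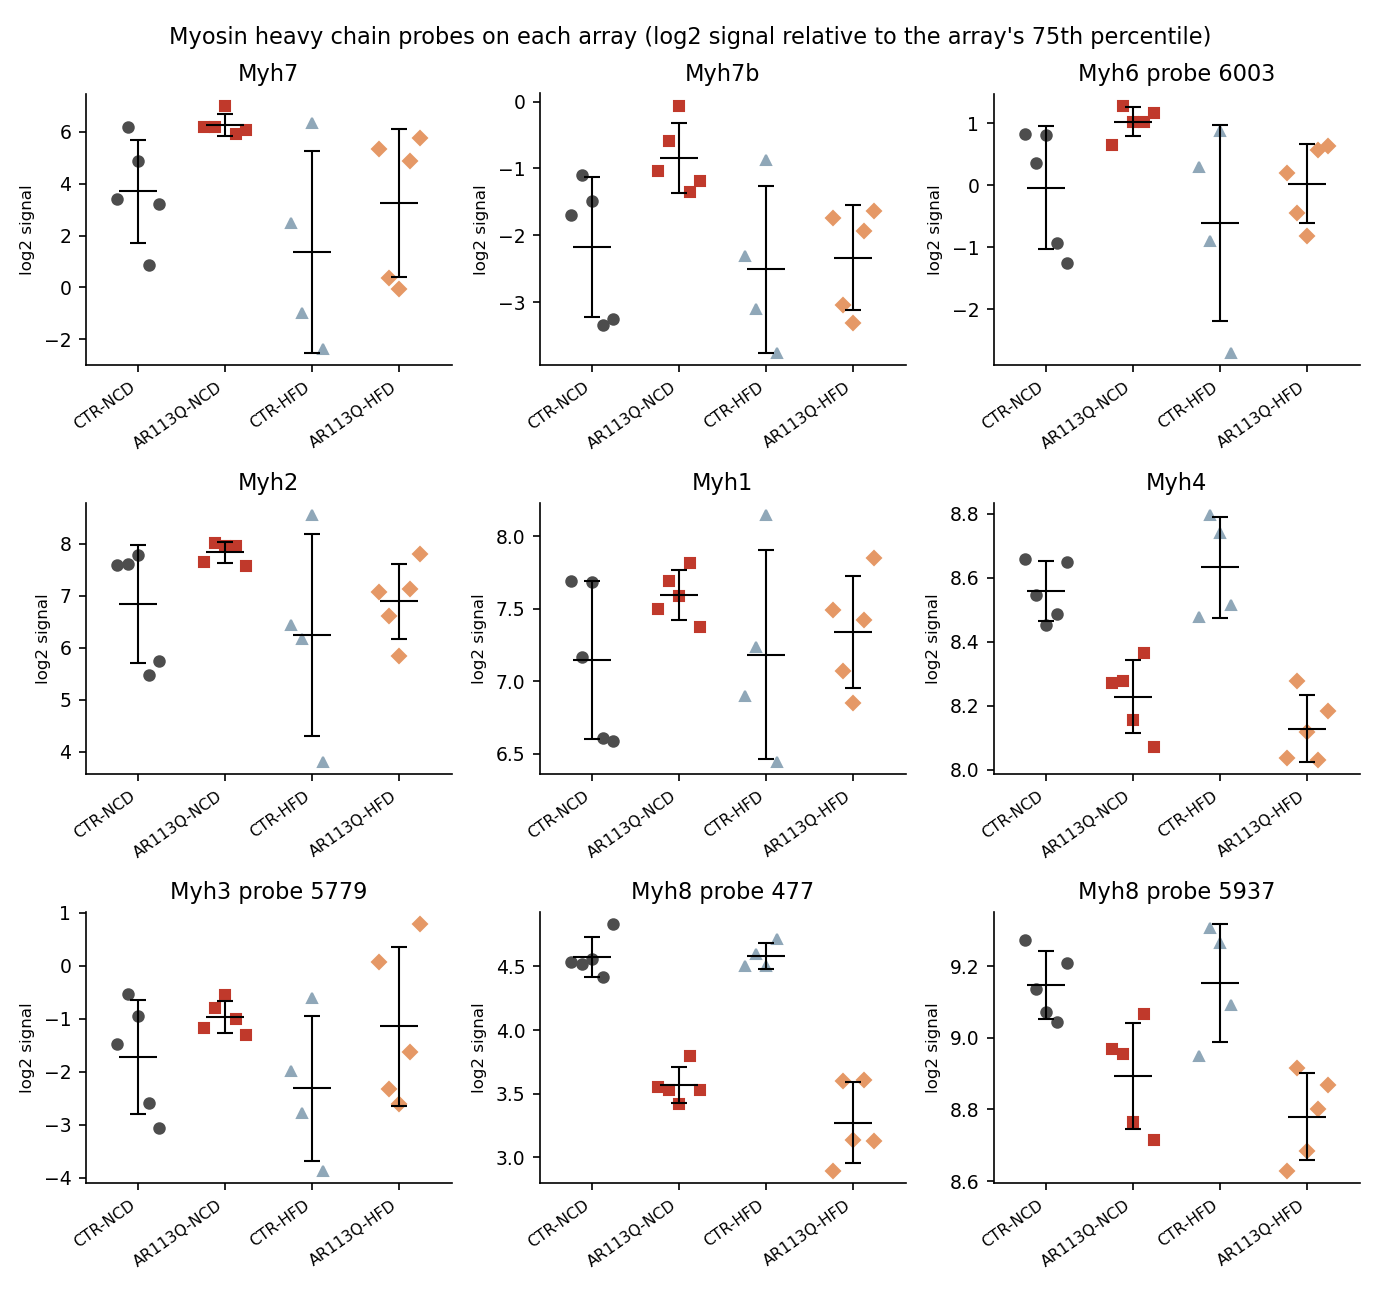
Log2 signal of myosin heavy chain probes relative to the 75th percentile of the array, with each array as a point and the mean and standard deviation of each group as a bar. The Myh8 probe 477 values of AR113Q-NCD (3.42 to 3.80) lie under all of CTR-NCD (4.42 to 4.83), while Myh7 spans 9.36 over the 19 arrays.

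The slow chain Myh7 read 3.42, 6.16, 4.88, 0.88 and 3.21 in CTR-NCD replicates 1 to 5, and 6.18, 6.17, 7.0, 5.90 and 6.06 in AR113Q-NCD replicates 1 to 5. With the high fat diet it read 2.49, -0.97, 6.33 and -2.37 in CTR-HFD replicates 1 to 4, and 5.34, 0.35, -0.072, 4.88 and 5.77 in AR113Q-HFD replicates 1 to 5. The AR113Q-NCD arrays are close together at the upper end of the range, and the other 3 groups each mix high and low arrays, so that CTR-NCD replicate 2 and CTR-HFD replicate 3 reach the AR113Q-NCD level. From the lowest to the highest array, Myh7 differed by 9.36, or 659-fold.

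Group means of Myh7 were highest in AR113Q-NCD (6.26 ± 0.43, SD, n = 5), then CTR-NCD (3.71 ± 1.98, n = 5), AR113Q-HFD (3.25 ± 2.86, n = 5) and CTR-HFD (1.37 ± 3.88, n = 4), and the last 3 differ by less than their spread. The genotype difference was 2.55 (SE 1.51) on the normal diet, with an adjusted p of 0.297, and 1.88 (SE 1.60) on the high fat diet, with an adjusted p of 0.49, positive under all 5 scalings in both diets. Leaving out 1 array moved these from 1.84 to 3.17 and from 0.64 to 3.54. A two-sided exact permutation test over arrays gave p = 0.0238 and p = 0.421. Such a test exchanges arrays freely between slides and leaves out the slide that arrays share. In all, 32 such tests were run, on the lead probe of each gene in 4 comparisons, and their p-values are given unadjusted, of which 0.0238 becomes 0.0692 when adjusted over the 32, 0.00794 becomes 0.0423, and 0.00794 is the smallest that 5 against 5 or 5 against 4 arrays can give. Myh7 is not called in either diet.

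Averaged over both diets, Myh7 was higher by 2.22 (SE 1.10, adjusted p 0.149). That average depends on CTR-HFD replicate 3, whose Myh7 value of 6.33 is within the range of AR113Q-NCD and which lowers the average: without it, 7 of the 12 probes were called in place of 3. The 4 added probes were Myh7 at 3.04 (adjusted p 0.0243), Myh2 at 1.21 (0.0382), Myh7b at 1.03 (0.0445) and Myh6 probe 6003 at 1.10 (0.0453), all higher in AR113Q. Without any 1 of the other 18 arrays the count was 3. The share of all probes called in these fits is not given, so the move is not read as particular to the heavy chains.

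Myh7b, the slow-tonic chain, read -1.70, -1.10, -1.49, -3.35 and -3.25 in CTR-NCD and -1.04, -0.58, -0.063, -1.36 and -1.19 in AR113Q-NCD. Its high fat values were -2.32, -3.10, -0.87 and -3.76 in CTR-HFD and -1.74, -3.04, -3.31, -1.93 and -1.64 in AR113Q-HFD. Replicates 4 and 5 of CTR-NCD are low, and the genotypes overlap in both diets. Compared within slides on the normal diet, AR113Q-NCD was higher on 5 of 5 slides for Myh7b (0.52 to 2.06), Myh7 (0.0038 to 5.02) and Myh2 (0.059 to 2.48). On the high fat diet each was higher on 3 of 4 slides. The range there was -2.44 to 2.12 for Myh7b, -6.40 to 8.14 for Myh7 and -2.72 to 3.99 for Myh2. On the normal diet Myh3 probe 5779 and Myh6 probe 6003 were higher on 4 of 5 slides and Myh1 on 3 of 5. With the high fat diet Myh3 probe 5779 was higher on 3 of 4 slides, and Myh6 probe 6003 and Myh1 on 2 of 4. The Myh7b difference was 1.33 (SE 0.55) on the normal diet, with an unadjusted p of 0.0275 and an adjusted p of 0.115, and 0.18 (SE 0.58, adjusted p 0.883) on the high fat diet. The high fat value turned negative without CTR-HFD replicate 2 (-0.019) or without CTR-HFD replicate 4 (-0.24).

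Myh6 probe 6003 reads the end of the heart's alpha chain transcript. It read 0.84, 0.36, 0.81, -0.93 and -1.25 in CTR-NCD and 0.65, 1.28, 1.02, 1.03 and 1.18 in AR113Q-NCD, and 0.29, -0.90, 0.88 and -2.70 in CTR-HFD against 0.20, -0.45, -0.82, 0.57 and 0.64 in AR113Q-HFD. As for Myh7b, replicates 4 and 5 of CTR-NCD are low, and AR113Q-NCD is the narrow group. The difference of 1.07 (SE 0.57, adjusted p 0.237) on the normal diet had an exact two-sided permutation p of 0.0238, and the difference on the high fat diet was 0.64 (SE 0.60, adjusted p 0.543), which became -0.063 without CTR-HFD replicate 4. The other Myh6 probe, 308, near the start of the transcript, ranged from -6.82 to -4.56 and was well above background on 15 of 19 arrays.

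Myh2, the chain of type IIa fibers, read 7.60, 7.62, 7.78, 5.48 and 5.74 in CTR-NCD and 7.66, 8.02, 7.96, 7.95 and 7.58 in AR113Q-NCD. With the high fat diet it read 6.43, 6.17, 8.56 and 3.80 in CTR-HFD and 7.08, 6.61, 5.84, 7.13 and 7.80 in AR113Q-HFD. The 3 high CTR-NCD arrays lie at the lower edge of AR113Q-NCD, and the difference in means comes with the low replicates 4 and 5. It was 0.99 (SE 0.67, adjusted p 0.376) on the normal diet and 0.65 (SE 0.71, adjusted p 0.608) on the high fat diet, where it became -0.16 without CTR-HFD replicate 4.

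Myh1, the chain of type IIx fibers, ranged from 6.44 to 8.15 over all arrays, with group means of 7.59 ± 0.17 (SD, n = 5) in AR113Q-NCD, 7.34 ± 0.39 (n = 5) in AR113Q-HFD, 7.18 ± 0.72 (n = 4) in CTR-HFD and 7.15 ± 0.54 (n = 5) in CTR-NCD. Its genotype difference was 0.45 (SE 0.29, adjusted p 0.352) on the normal diet and 0.16 (SE 0.31, adjusted p 0.797) on the high fat diet, and it became -0.091 without CTR-HFD replicate 4. Myh1, Myh2, Myh3 probe 5779, Myh6 probe 6003, Myh7 and Myh7b all had their lowest value on that same array. Under quantile normalization, Myh1 was called higher in the comparison averaged over both diets, at 0.56 (adjusted p 0.0494).

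Myh4, the chain of type IIb fibers, moved far less from array to array, over 0.77 in all. It read 8.66, 8.54, 8.45, 8.49 and 8.65 in CTR-NCD and 8.27, 8.28, 8.16, 8.36 and 8.07 in AR113Q-NCD. Its high fat values were 8.48, 8.80, 8.74 and 8.52 in CTR-HFD and 8.04, 8.28, 8.12, 8.03 and 8.18 in AR113Q-HFD. Every AR113Q array lies under every wild type array, in both diets, on this scaling.

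The Myh4 difference was -0.33 (SE 0.080, adjusted p 0.00801), 1.26-fold lower, on the normal diet, and -0.50 (SE 0.085, adjusted p 0.000479), 1.42-fold lower, on the high fat diet, with a two-sided exact permutation p of 0.00794 in each. These calls depend on the scaling: Myh4 was at 0.068 (adjusted p 0.426) and -0.0050 (0.966) after quantile normalization, 0.025 (0.833) and -0.025 (0.837) in the authors' values, -0.28 (0.188) and -0.44 (0.0423) after median centring, and -0.043 (0.835) and -0.53 (0.158) after normexp background correction. Normexp itself moved the median of all probes to -0.57 in the normal diet comparison, -0.32 averaged over both diets, -0.66 between the wild type diets, -0.39 between the diets on average and 0.54 in the interaction. The log2 75th percentile that the arrays were scaled by was 9.99 to 10.31 in AR113Q-HFD and 9.62 to 9.97 in CTR-HFD, without overlap, and 9.76 to 10.18 in AR113Q-NCD and 9.64 to 9.88 in CTR-NCD, with overlap, and its part in the result was not tested.

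Within slides, Myh4 was lower in AR113Q on 5 of 5 slides on the normal diet (-0.58 to -0.12) and on 4 of 4 on the high fat diet (-0.62 to -0.33). With the slide as a block the differences were -0.33 (adjusted p 0.00986) and -0.50 (0.0011).

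The Myh8 probes gave different results, and what each of them reads in this muscle was not tested. The clearest difference among the member probes was at Myh8 probe 477, near the start of the perinatal chain's transcript. It read 4.53, 4.52, 4.56, 4.42 and 4.83 in CTR-NCD and 3.55, 3.53, 3.42, 3.80 and 3.53 in AR113Q-NCD. Its high fat values were 4.50, 4.60, 4.51 and 4.72 in CTR-HFD and 2.89, 3.60, 3.13, 3.61 and 3.13 in AR113Q-HFD. All 10 AR113Q arrays lie under all 9 wild type arrays, with a gap wider than the spread of either wild type group.

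Group means of Myh8 probe 477 were 4.58 ± 0.10 (SD, n = 4) in CTR-HFD, 4.57 ± 0.16 (n = 5) in CTR-NCD, 3.57 ± 0.14 (n = 5) in AR113Q-NCD and 3.27 ± 0.32 (n = 5) in AR113Q-HFD. Both wild type groups differ by less than their spread, and the arrays of both AR113Q groups overlap. The probe fell by 1.01 on the normal diet (SE 0.13, adjusted p 4.05e-05), 2.01-fold, and by 1.31 on the high fat diet (SE 0.13, adjusted p 7.24e-06), 2.48-fold.

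The Myh8 probe 477 call held in 30 of 30 alternatives in each diet, with differences from -1.06 to -0.74 (adjusted p 6.84e-06 to 0.0298) on the normal diet and from -1.39 to -1.19 (9.44e-07 to 0.00289) on the high fat diet. The probe was lower on 5 of 5 slides (-1.30 to -0.62) and 4 of 4 slides (-1.61 to -1.0). With the slide as a block it was at -1.01 (adjusted p 0.000104) and -1.34 (2.58e-05).

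Myh8 probe 5937, near the end of the coding sequence, read 9.27, 9.13, 9.07, 9.04 and 9.21 in CTR-NCD and 8.97, 8.96, 8.76, 9.06 and 8.71 in AR113Q-NCD. With the high fat diet it read 8.95, 9.31, 9.26 and 9.09 in CTR-HFD and 8.63, 8.92, 8.68, 8.80 and 8.87 in AR113Q-HFD. The genotypes touch on the normal diet, where AR113Q-NCD replicate 4 passes CTR-NCD replicate 4, and are apart on the high fat diet. Within slides the probe was lower in AR113Q on 4 of 5 slides on the normal diet and on 4 of 4 on the high fat diet. The difference was -0.25 (SE 0.088, adjusted p 0.0588) on the normal diet, and -0.30 (0.0353) without AR113Q-NCD replicate 4 and -0.25 (0.047) without CTR-HFD replicate 1. It was also called with an intensity trend (0.0358), with array weights (0.0387) and among probes well above background on all arrays (0.0417).

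In the high fat comparison, Myh8 probe 5937 was at -0.37 (SE 0.093, adjusted p 0.00965), with no call when only the 9 arrays compared were fitted (0.0527). Like Myh4, this probe changed sign with the scaling: quantile normalization gave 0.10 (adjusted p 0.0904) and 0.069 (0.318), and in the average over both diets 0.087 (0.0353), median centring gave -0.20 (0.404) and -0.31 (0.191), and normexp gave 0.033 (0.878) and -0.41 (0.42). The probe was between number 3 and number 8 by brightness on each array, and quantile normalization leaves such a probe few values to take, so its direction there is not read. Across arrays, with group means taken out, Myh8 probes 477 and 5937 had r = 0.503 with each other (19 arrays). Probe 5937 had r = 0.918 with Myh4 and was the brighter of that pair, with mean log2 signals of 8.98 and 8.37 over all arrays. A further probe, 2202, ranged from -6.45 to -4.64 and was well above background on 18 of 19 arrays. Its genotype difference was -0.11 (limma adjusted p 0.903) on the normal diet and 0.22 (0.787) on the high fat diet. Probe 2202 had r = -0.290 with probe 477 and -0.090 with probe 5937.

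Myh3, the embryonic chain, read -1.48, -0.53, -0.95, -2.59 and -3.07 at probe 5779 in CTR-NCD and -1.18, -0.80, -0.55, -1.0 and -1.30 in AR113Q-NCD. Its high fat values were -1.97, -2.78, -0.61 and -3.87 in CTR-HFD and 0.066, -2.32, -2.61, -1.62 and 0.80 in AR113Q-HFD. The genotypes overlap in both diets, and replicates 1 and 5 of AR113Q-HFD are the highest of all 19 arrays. The difference was 0.76 (SE 0.69, adjusted p 0.538) on the normal diet, -0.075 under normexp, and 1.17 (SE 0.73, adjusted p 0.321) on the high fat diet, 0.65 to 1.74 when 1 array was left out. Its other probe, 5922, ranged from -4.15 to 0.60 and followed the first across arrays (r = 0.995, group means taken out).

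**Figure D2:**
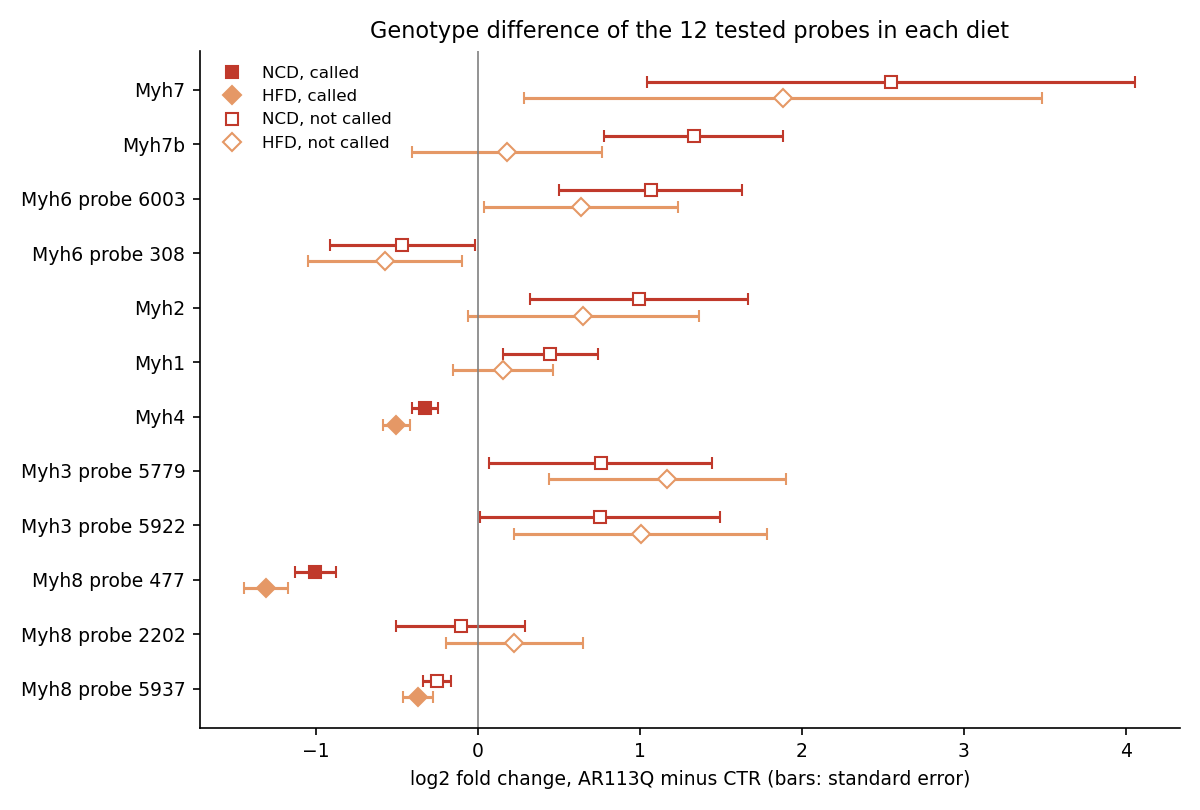
Log2 fold change of each of the 12 tested probes between AR113Q and wild type (CTR), with standard errors, for the normal and the high fat diet. Filled points are called: Myh8 probe 477 at -1.01 and -1.31, Myh4 at -0.33 and -0.50 (0.068 and -0.0050 after quantile normalization) and, on the high fat diet, Myh8 probe 5937 at -0.37 (0.069 after quantile normalization).

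**Figure D3:**
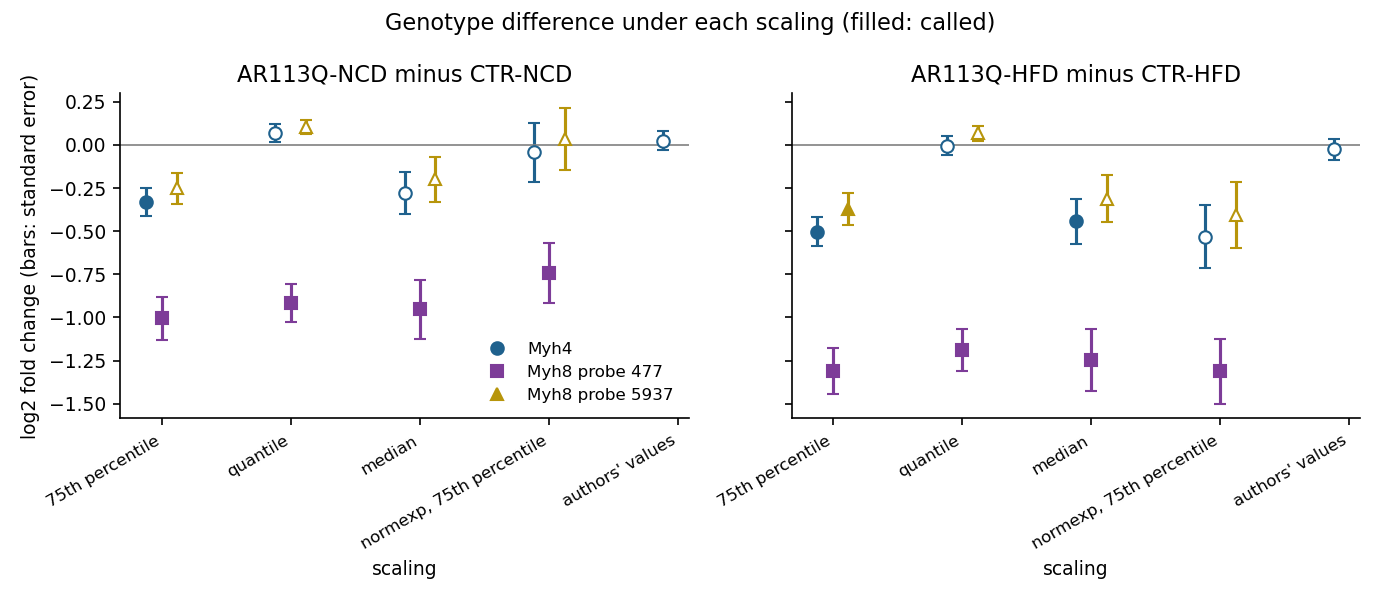
Log2 fold change between AR113Q and wild type (CTR) under each scaling for the 3 probes with a call in either diet, with standard errors and filled points for calls (the authors' values are drawn for Myh4 only). Myh8 probe 477 stays between -1.31 and -0.74. Myh4 goes from -0.33 to 0.068 on the normal diet and from -0.53 to -0.0050 on the high fat diet. Myh8 probe 5937 goes from -0.25 to 0.10 and from -0.41 to 0.069. Myh4 and probe 5937 change sign, except Myh4 on the high fat diet. On that diet probe 5937 is above 0 only after quantile normalization, where its direction is not read.

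Taking each chain's difference to Myh4 on the same array removes a scaling factor shared by all probes of the array. It does not remove an effect that depends on brightness, which was not tested. By brightness, Myh4 was number 33 to 55 on the arrays and Myh8 probe 477 number 1433 to 3407. For Myh8 probe 477 the difference to Myh4 averaged -3.99 in CTR-NCD, -4.05 in CTR-HFD, -4.66 in AR113Q-NCD and -4.86 in AR113Q-HFD, with all AR113Q arrays under all wild type arrays of their diet. Myh8 probe 477 was thus lower by more than Myh4 was, with the difference moving by -0.68 on the normal diet and -0.80 on the high fat diet.

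For Myh2 the difference to Myh4 was higher by 1.32 in AR113Q-NCD than in CTR-NCD, and for Myh6 probe 6003 by 1.40. In each, all AR113Q-NCD arrays were above all CTR-NCD arrays, but barely. The lowest AR113Q-NCD array was at -0.615 and the highest CTR-NCD array at -0.672 for Myh2. For Myh6 probe 6003 they were at -7.624 and -7.638. CTR-NCD replicates 4 and 5 were the lowest in both. The genotypes overlapped for both on the high fat diet, at 1.15 and 1.14. The difference of Myh7 to Myh4 was higher by 2.88 on the normal diet and 2.39 on the high fat diet, and that of Myh7b by 1.66 and 0.68, all with overlapping arrays. Myh8 probe 5937 kept close to Myh4, at 0.078 and 0.13, also overlapping. These within-array differences were not tested.

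**Figure D4:**
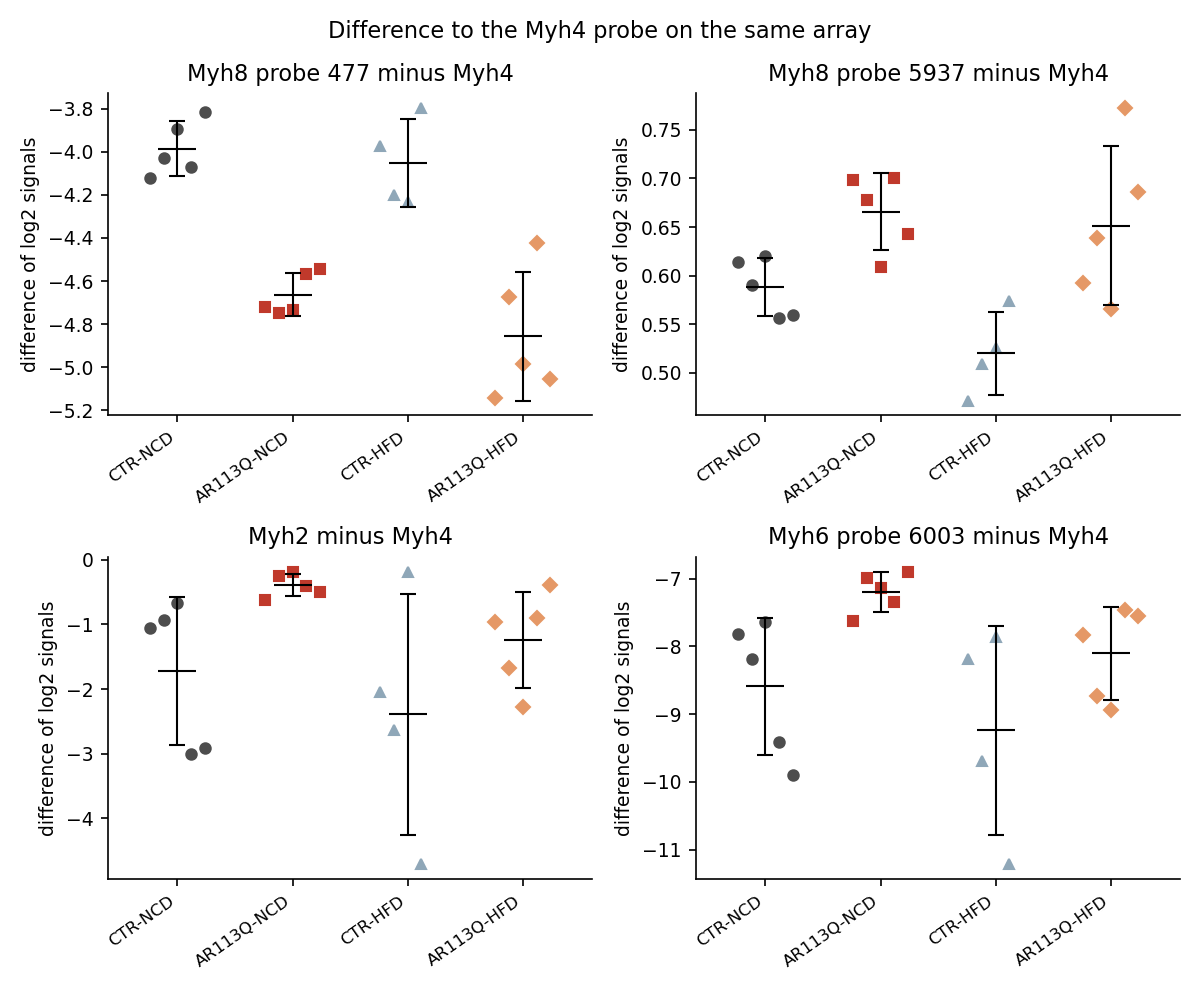
Difference between the log2 signals of a heavy chain probe and of the Myh4 probe on the same array, by group, with each array as a point. Myh8 probe 477 minus Myh4 averages -3.99 in CTR-NCD and -4.66 in AR113Q-NCD, without overlap, and Myh2 minus Myh4 is 1.32 higher in AR113Q-NCD than in CTR-NCD.

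Between the diets, limma called 0 of the 12 probes in AR113Q mice, where 0.025% of all probes were called, and 2 of the 12 had an unadjusted p under 0.05, as did 6.71% of all probes. Each of Myh7, Myh7b and Myh6 probe 6003 read lower on every AR113Q-HFD array than on any AR113Q-NCD array, for Myh6 probe 6003 barely (0.638 against 0.647), and Myh2 overlapped. For Myh7 the highest AR113Q-HFD array was at 5.77 and the lowest AR113Q-NCD array at 5.90. As differences to Myh4, Myh7b kept apart and Myh7 and Myh6 probe 6003 overlapped. Myh7 differed by -3.01 (SE 1.51, adjusted p 0.768), Myh7b by -1.49 (SE 0.55, adjusted p 0.599) and Myh6 probe 6003 by -1.01 (SE 0.57, adjusted p 0.818). Compared within slides, Myh7 differed by -7.07 to -0.29 with a median of -1.02, and Myh7b by -3.25 to -0.45 with a median of -0.70. Both differed most on the slides of AR113Q-HFD replicates 2 and 3. The exact two-sided permutation p was 0.00794, the smallest possible, for each of Myh7, Myh7b and Myh6 probe 6003. With group means taken out, these 3 had r between 0.81 and 0.91 with each other, so their p-values are not independent. For Myh2, which differed by -0.94 (SE 0.67, adjusted p 0.903), the permutation p was 0.0238.

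Myh8 probe 477 differed by -0.29 (SE 0.13, unadjusted p 0.034, adjusted p 0.709) between the AR113Q diets, and Myh4 by -0.10 (SE 0.080, adjusted p 0.933), both with overlapping arrays. In AR113Q mice 2 of the 12 probes were above 0 and 10 below, with a median of -0.26 beside -0.0030 over all probes.

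In wild type mice limma called 0 of the 12 probes between the diets and 0% of all 32026 probes, with 0 of the 12 and 8.71% of all probes at an unadjusted p under 0.05. Myh7 differed by -2.34 (SE 1.60, adjusted p 0.729, exact two-sided permutation p 0.262), and by -3.99 to -1.09 when 1 array was left out, with replicates 2 and 4 of CTR-HFD low and replicate 3 high. The median was -0.29 over the 12 probes and 0.014 over all. Averaged over both genotypes, limma called 0 of the 12 probes and 0.025% of all probes, and 2 of the 12, Myh7 at -2.67 (adjusted p 0.392) and Myh7b at -0.91 (0.419), had an unadjusted p under 0.05, as did 11.2% of all probes.

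The interaction asks whether the genotype difference itself depended on the diet. For it limma called 0 of the 12 probes and 0% of all probes, with 0 of the 12 and 4.69% of all probes at an unadjusted p under 0.05. The interaction was -0.67 (SE 2.20) for Myh7, -1.15 (SE 0.80) for Myh7b, -0.17 (SE 0.12) for Myh4 and -0.30 (SE 0.18) for Myh8 probe 477, each with an adjusted p of 1. A difference between the diets in the response of the heavy chains to the genotype was not shown.

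Across the 19 arrays, with group means taken out, some chains moved together. Any pair among Myh1, Myh2, Myh3, Myh6, Myh7 and Myh7b had a Pearson r between 0.747 and 0.943, Myh4 had r = 0.918 with Myh8 probe 5937 but 0.321 with Myh8 probe 477, and -0.072 with Myh7. These are descriptions over 19 arrays that share groups and slides, by the lead probe of each gene apart from Myh8 probe 477, with no test. The plot of the chains against Myh7 shows the same arrays low together.

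**Figure D5:**
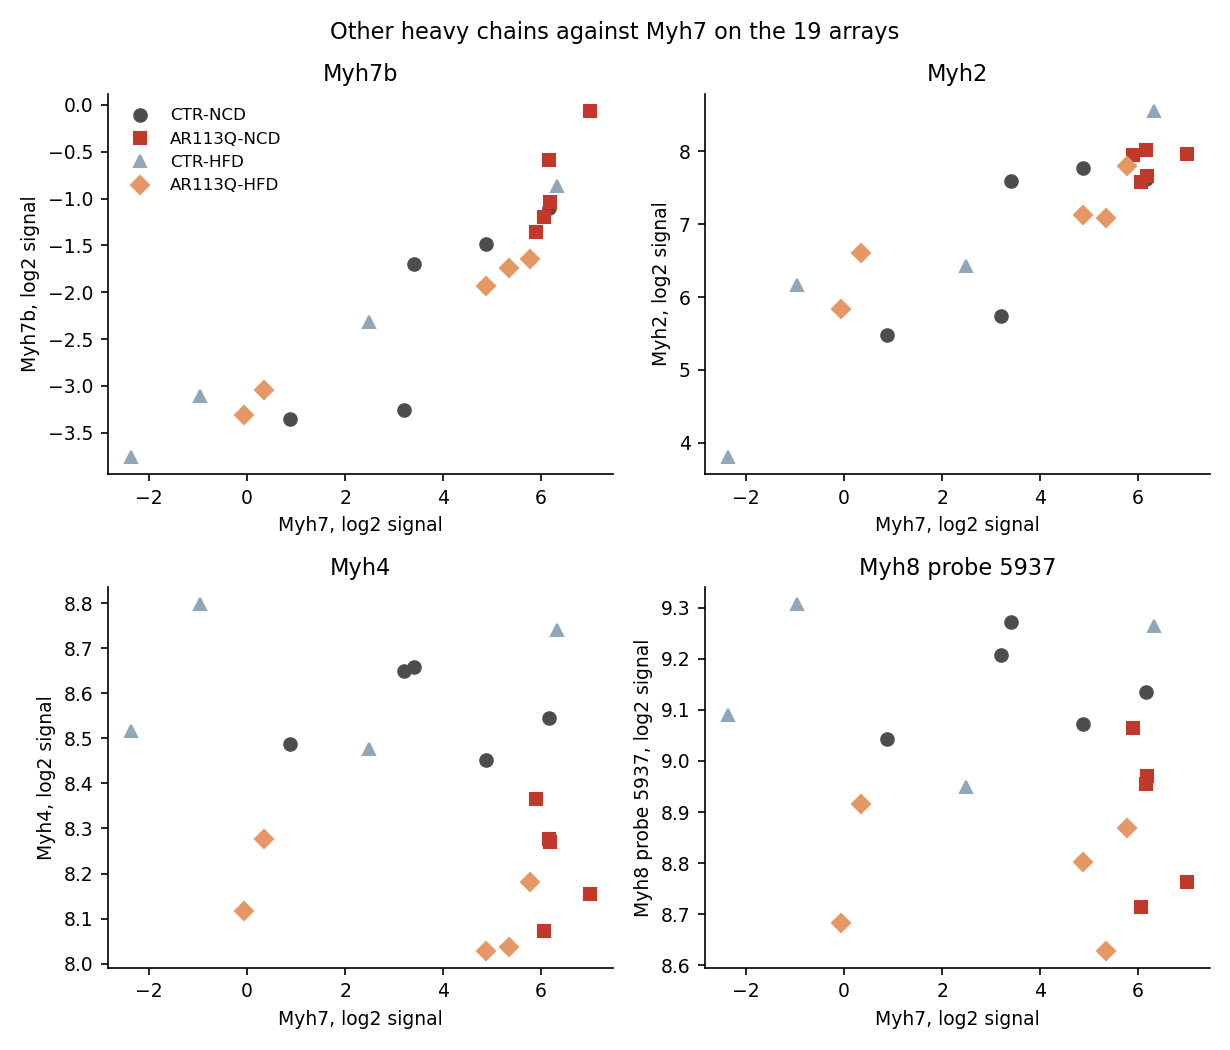
Log2 signal of other heavy chains against that of Myh7 on the same 19 arrays, with groups by colour and marker. Myh7b follows Myh7 (r = 0.909 with group means taken out), while Myh4 does not (r = -0.072).

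Among 24649 genes compared by their lead probes in the same way, those most like Myh7 were LOC100862557 (0.999) and genes of the slow thin filament and thick filament, troponin T Tnnt1 (0.997), troponin I Tnni1 (0.987), regulatory light chain Myl2 (0.985) and troponin C Tnnc1 (0.982). Those most like Myh7b were Homer2 (0.956), Idh2 (0.947), Myo5b (0.947), Tnni1 (0.944) and BC048679 (0.944). For Myh6 they were Gm590 (0.970), another heavy chain, Myh13 (0.965), Myl10 (0.955), Fxyd6 (0.948) and Slc25a34 (0.947). Myh7 thus varied between samples with transcripts of other slow sarcomere proteins.

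For Myh2 the most alike named genes were Fxyd6 (0.978), lactate dehydrogenase B, Ldhb (0.974), the Z-disc protein Myoz2 (0.974) and the M-band protein Myom3 (0.971), and an unnamed transcript had 0.980. For Myh1 they were Wfs1 (0.964), Ppara (0.952), Slc25a13 (0.951), Ldhb (0.947) and myoglobin, Mb (0.947). Ldhb and Mb are proteins of oxidative muscle. For Myh3 they were Tnnt2 (0.935), the troponin T of heart and early muscle, Lrrn1 (0.933), Myo5b (0.932), Pde8a (0.932) and Acot1 (0.931).

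For Myh4 the most alike were Pirb (0.959), Med16 (0.954), 1700047I17Rik2 (0.948), LOC100048117 (0.929) and Myh8 (0.918), and for Myh8 they were Med16 (0.974), skeletal actin Acta1 (0.971), Rn18s (0.970), tropomyosin Tpm1 (0.968) and LOC100048117 (0.958). The Myh8 lead probe is 5937.

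A long noncoding RNA, 2310065F04Rik, also known as linc-Myh, lies between Myh3 and Myh2 at chr11:67112461-67120080 (GRCm38.p6) and is known as a fast fiber transcript of this locus. It read 2.08, 2.26, 2.35, 1.86 and 2.62 in CTR-NCD and -1.17, -1.06, -1.13, -0.37 and -0.91 in AR113Q-NCD. With the high fat diet it read 2.17, 2.37, 1.96 and 2.36 in CTR-HFD and -1.81, -1.37, -2.06, -0.84 and -1.63 in AR113Q-HFD. Every AR113Q array is under every wild type array by more than any group spans.

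This RNA fell by 3.16 on the normal diet (SE 0.21, adjusted p 1.54e-07) and by 3.75 on the high fat diet (SE 0.22, adjusted p 6.1e-08), called in 31 of 31 alternatives in each diet (-3.30 to -2.67 and -3.93 to -3.39). It was the gene with the largest difference in a list of 20 fiber type regulators. Of these, 5 were called lower and 0 higher on the normal diet. On the high fat diet 6 were called lower and 1 higher, the dim probe of Prox1. The list medians were -0.12 and -0.14, beside -0.059 and -0.088 over all 24741 genes, of which 8.99% and 10.5% were called lower and 8.19% and 7.49% higher. Under normexp the list median on the normal diet was 0.069.

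Sox6, a repressor of slow fiber genes, fell by 0.94 on the normal diet (adjusted p 5.14e-05) and by 0.67 on the high fat diet (0.00154) and stayed called under all scalings. Tbx15, a factor of glycolytic fibers, was at -0.71 (0.00154) and -0.53 (0.0159), with no call under normexp on the normal diet (0.145) nor under median centring (0.137), normexp (0.129) or without CTR-HFD replicate 2 (-0.42, 0.067) on the high fat diet. Eya1 on the normal diet (-0.38, adjusted p 0.018) lost its call under median centring (0.148) and normexp (0.383), without CTR-NCD replicate 5 (-0.34, 0.0518) and without AR113Q-NCD replicate 5 (-0.34, 0.0528).

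Tead1 (-0.40, adjusted p 0.0356) and Prox1, a factor of the slow program (adjusted p 0.0318), lost their high fat calls without any 1 of 6 arrays (0.057 to 0.118) and any 1 of 5 arrays (0.0556 to 0.123). Tead1 also lost it under quantile normalization (0.0851), median centring (0.211) and normexp (0.15), and Prox1 under normexp (adjusted p 1). The Prox1 probe was dim, well above background on 0 of 4 CTR-HFD arrays and 4 of 5 AR113Q-HFD arrays, so no size is given for it.

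Of 15 genes of the slow sarcomere, the partners of Myh7, 15 were above 0 on the normal diet and 13 on the high fat diet, with medians of 1.63 and 0.86, and 3 were called higher and 0 lower in each. Among all genes, 8.19% and 7.49% were called higher and 8.99% and 10.5% lower, with medians of -0.059 and -0.088. The troponins Tnni1 (2.44, adjusted p 0.148), Tnnt1 (2.32, 0.221) and Tnnc1 (2.25, 0.147) and the light chains Myl2 (2.55, 0.228) and Myl3 (2.01, 0.306) were not called on the normal diet, nor on the high fat diet at 1.12, 1.42, 0.86, 1.52 and 1.01, which leaving out 1 array took as low as 0.17 (Tnnc1) and as high as 3.03 (Myl2). The slow calcium pump Atp2a2 was at 1.66 (0.0631) and 0.80 (0.446), and was called without CTR-NCD replicate 2 (2.02, 0.0272) and without CTR-HFD replicate 3 (1.66, 0.0119, and 1.58, 0.0343).

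The slow sarcomere genes that passed were Casq2, the calcium store protein of heart and slow fibers, at 2.0 (adjusted p 0.0042) and 1.99 (0.00631), Actn2, a Z-disc actinin, at 1.13 (0.047) and 1.20 (0.0451), and Myl6b at 0.33 (0.00622) and 0.35 (0.00687). The Actn2 calls were lost without any 1 of 13 arrays in each diet (adjusted p 0.053 to 0.128 and 0.0521 to 0.158). Under median centring and normexp, 1 of the 15 genes was called in each diet, Casq2.

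Among all genes, 8.99% were called lower on the normal diet and 10.5% on the high fat diet. Of 14 genes of the fast sarcomere, the partners of Myh4, 13 were called lower on the normal diet and 14 on the high fat diet, with medians of -0.53 and -0.51. These counts depend on the scaling: 8 and 6 were called lower after quantile normalization, with 5 and 2 of the 14 then above 0, 7 and 8 after median centring, 3 and 5 after normexp with 1 above 0 on the normal diet, and 8 and 7 of 12 in the authors' values, with 3 above 0 in each.

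Mylk2, a kinase of the regulatory light chain, at -1.60 (adjusted p 1.5e-06) and -1.65 (1.97e-06), and Casq1, the calcium store of fast fibers, at -1.26 (7.7e-06) and -1.03 (7.14e-05), were called under all scalings. The fast calcium pump Atp2a1 was at -0.83 (1.1e-05) and -0.84 (1.98e-05), with no call under normexp on the normal diet (0.145). Prkag3, the glycogen-linked kinase subunit of glycolytic fibers, was at -1.44 (0.000693) and -0.80 (0.0451). The Prkag3 call on the high fat diet was lost without any 1 of 14 arrays (0.0519 to 0.169) and under quantile normalization (0.0555), median centring (0.145) and normexp (0.128). It also ended with the replicate number as a block (0.0553).

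The troponins of fast fibers, which let calcium switch on the thin filament, had small differences. Tnni2 was at -0.29 (adjusted p 0.0301) and -0.42 (0.00415), Tnnt3 at -0.30 (0.0458) and -0.46 (0.00452) and Tnnc2 at -0.25 (0.0587) and -0.39 (0.00689). On the normal diet the Tnni2 call was lost without any 1 of 6 arrays (0.0505 to 0.0803) and that of Tnnt3 without any 1 of 13 (0.0504 to 0.112), and Tnnc2 was called without any 1 of 3 (0.0205 to 0.0466). The Tnnt3 call also ended with the replicate number (0.0527) or the slide (0.0557) as a block. No fast troponin was called under any other scaling in either diet, and the sign changed for Tnnc2 (0.11 and 0.040 after quantile normalization, 0.085 and 0.029 in the authors' values, 0.047 under normexp on the normal diet), for Tnni2 (0.066 and 0.042 in the authors' values) and for Tnnt3 (0.066 after quantile normalization on the normal diet). Tnni2 was number 2 by brightness on all 19 arrays, where quantile normalization gives it almost the same value, so its difference there is about 0 by construction.

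On the normal and the high fat diet, 8.19% and 7.49% of all genes were called higher and 8.99% and 10.5% lower. Light chains and their kinases, 13 genes, had 2 called higher and 4 lower in each diet, with medians of 0.023 and -0.049, the latter 0.032 after quantile normalization, 0.012 after median centring and 0.14 in the authors' values. The lower ones were Mylk4 (-2.31, adjusted p 4.49e-06, and -2.44, 5.02e-06), Mylk2, the fast regulatory chain Mylpf (-0.50, 0.000288, and -0.51, 0.000414) and the fast essential chain Myl1 (-0.40, 0.00274, and -0.51, 0.000611). Mylpf was not called under median centring or normexp in either diet. Myl1 was at 0.011 both after quantile normalization and in the authors' values on the normal diet and at 0.00212 in the authors' values on the high fat diet, and under another scaling it was called only after median centring on the high fat diet (adjusted p 0.049). The higher ones were Myl12a (0.88, 0.00126, and 0.84, 0.00271), a chain of nonmuscle myosin, not called on the high fat diet under normexp (0.149), and Myl6b.

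Called lower among all genes were 8.99% on the normal diet and 10.5% on the high fat diet. Thick filament partners, 14 genes that bind, fold or turn over myosin, had 0 called higher and 6 lower in each diet, with medians of -0.25 and -0.28. They included the myosin chaperone Unc45b (-0.66, adjusted p 0.000135, and -0.78, 5.1e-05), the ubiquitin ligases Trim54 (-0.61, 5.36e-05, and -0.61, 0.000103) and Trim63 (-0.65, 0.00245, and -0.51, 0.0185) and the fast myosin-binding protein Mybpc2 (-0.57, 6.22e-05, and -0.52, 0.000239). After quantile normalization 4 and 2 were called lower and 1 higher in each diet, after median centring 4 and 3 lower, and under normexp 0 on the normal diet, where the median was 0.035, and 1 on the high fat diet. Trim63 on the high fat diet lost its call without CTR-HFD replicate 2 (0.0621), CTR-HFD replicate 4 (0.0585) or AR113Q-HFD replicate 3 (0.0514) and after quantile normalization (0.0691), and Mybpc2 lost it there too (-0.072, 0.478).

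Called higher among all genes were 8.19% on the normal diet and 7.49% on the high fat diet. Developmental and denervation genes, 15 beside Myh3 and Myh8, had 6 called higher on the normal diet and 7 on the high fat diet and 0 lower, with medians of 0.33 and 0.38. They included the acetylcholine receptor subunit Chrna1 (1.51, adjusted p 6.42e-06, and 1.99, 1.36e-06), the actin of heart and early muscle Actc1 (1.36, 0.000283, and 1.08, 0.0028) and Runx1 (1.25, 2.82e-05, and 1.08, 0.000165), which was at -0.076 under normexp on the normal diet and not called there on the high fat diet (0.478). Under normexp 4 were called higher in each diet, with a median of -0.076 on the normal diet. Gadd45a, known to rise in denervated muscle, was at 1.23 (1.08e-05) on the normal diet and the receptor kinase Musk at 1.21 (0.000301) on the high fat diet. Group means went the same way in the other diet. They were 1.53 in AR113Q-HFD and 0.49 in CTR-HFD for Gadd45a, and 0.52 in AR113Q-NCD and -0.27 in CTR-NCD for Musk. Myh8 probe 477, of the perinatal chain, was lower in the same AR113Q samples.

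Beside 8.19% and 7.49% of all genes called higher, other myosin heavy chains, 6 of 7 tested, had 1 called higher in each diet and 0 lower. Their medians were 0.27 and 0.086. The chain called was the nonmuscle Myh14, at 0.77 (adjusted p 0.000137) and 0.76 (0.000259). It was called under all scalings.

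The tissue label was checked by 8 markers of skeletal muscle, Acta1, Ckm, Des, Ttn, Neb, Ryr1, Cacna1s and Dmd. All 8 were well above background on all 19 arrays, and their summed log2 level had a median of 10.86 in CTR-NCD, 10.91 in CTR-HFD, 10.50 in AR113Q-NCD and 10.47 in AR113Q-HFD, with Acta1 the brightest probe on each array. Among all genes, 8.99% and 10.5% were called lower and 8.19% and 7.49% higher on the normal and the high fat diet. Of the 8, 5 were called lower on the normal diet, and 5 lower and 1 higher on the high fat diet, with medians of -0.32 and -0.43. After quantile normalization 0 were higher and 2 lower on the normal diet and 2 higher and 2 lower on the high fat diet, where the median was then 0.035, and under normexp 0 and 1 were lower. Their part in the Myh4 result was not tested.

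Markers of heart muscle, which uses Myh6 and Myh7 as its own chains, were dim: the summed level of Nppa, Nppb, Tnni3, Ryr2 and Myl7 had medians of -2.70, -2.55, -2.74 and -2.81 in CTR-NCD, CTR-HFD, AR113Q-NCD and AR113Q-HFD, and limma called 0 of 5 in either diet, with 0 and 1 at an unadjusted p under 0.05. Ryr2 was well above background on 2, 2, 5 and 1 arrays of these groups.

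Of smooth muscle, adipocyte, endothelial, red blood cell and macrophage markers, limma called 0 in either genotype comparison, and at an unadjusted p under 0.05 there were 0 on the normal diet and 1 adipocyte and 1 endothelial gene on the high fat diet. In the same order of groups, their summed levels had medians of 4.68, 4.51, 4.77 and 4.51 for 4 smooth muscle genes, and 6.63, 6.34, 6.68 and 6.35 for 6 adipocyte genes. The medians were 2.55, 2.48, 2.56 and 2.13 for 3 endothelial genes, 6.15, 5.85, 6.41 and 6.24 for 3 red blood cell genes, and 3.51, 3.38, 3.47 and 3.43 for 4 macrophage genes. Of 5 Schwann cell markers, S100b was called higher on the normal diet (0.58, adjusted p 0.00547), though 0 were under normexp, and 0 on the high fat diet, with 2 and 1 at an unadjusted p under 0.05 and summed medians of 1.55, 1.56, 1.83 and 1.65. Among all genes, 8.19% were called higher on the normal diet. In the 15 lists, limma called 0 of 124 genes between the AR113Q diets and 0 between the wild type diets, with 17 and 8 at an unadjusted p under 0.05, beside 6.71% and 8.71% of all probes. The part of other cell types in the heavy chain results was not tested.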

How the data were processed

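The authors deposited scanner files of 19 one-colour Agilent arrays, read with Feature Extraction 10.7.3.1. Their unit is spot intensity, corrected for local background and for trends within the array but not scaled from array to array. The authors also deposited log2 values by transcript (25944 entries), whose method is not stated. Samples were put into groups by their labels.

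The log2 of each intensity was used, without control spots and outlier spots. Repeat spots of the same probe were replaced by their mean (43020 spots, 39429 probes), and every array was then set to a 75th percentile of 0. Testing needed a probe to be well above background, in 0.5 or more of its spots, on 4 or more of the 19 arrays. Limma 3.58.1 in R 4.3.3, with data.table (version 1.17.8), fitted the 4 groups with no block, and p-values were adjusted by Benjamini-Hochberg over 32026 probes. The comparisons were AR113Q with wild type in each diet and averaged, the diets in each genotype and averaged, and the interaction. Single lead probes (the brightest tested probe of a gene) were also tested with two-sided exact permutation tests. The method was tested on simulated data, and no outcome of that test is given here. Plots come from matplotlib 3.10.9 under Python 3.11.15.

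Named genes were the 8 members, for each the 5 genes most like it across arrays, up to 4 called genes of a list with the largest change in each direction, and 12 troponin, light chain and calcium pump partners. The 15 lists were other heavy chains, light chains, thick filament partners, slow sarcomere, fast sarcomere, developmental and denervation genes, fiber type regulators, and markers of skeletal muscle, cardiomyocytes, smooth muscle, adipocytes, Schwann cells, endothelium, red blood cells and macrophages. Members and lists were chosen with earlier results of these data known. Alternatives were quantile normalization, median centring, normexp (offset 50), the authors' values, other filters, outlier spots kept, slide and replicate blocks, an intensity trend, array weights, only the arrays compared, other thresholds and each array left out.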

Additional observations from a re-analysis of the deposited data

Results flagged for a closer look

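In 2 of 48 groups of arrays tested, 1 array stood far from the others of its group, and chance flags about 1 in 20 groups. For Myh6 probe 308 this was CTR-NCD replicate 2, at -6.54, below its group. For Myh7 it was AR113Q-NCD replicate 3, at 7.0, above its group.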

How the results depend on the processing

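Over all alternatives, 2594 fold changes of single probes and genes kept their direction and their side of the threshold, 156 lost their call, 19 gained one and 25 changed sign, and 215 counts stayed within 1.5 times the count given and 13 did not. Where a result changed, the cause was not tested.

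On the normal diet 1 member probe was called, in place of 2, under quantile normalization, median centring, normexp, the authors' values and a fold of at least 1.5 or at most 0.6. On the high fat diet 1 was called, in place of 3, under quantile normalization, normexp, the authors' values and that fold. Averaged over both diets, 1 was called, in place of 3, under normexp, the authors' values and that fold. A count that stays the same does not show that the same probes were called, or in the same direction. In that average, quantile normalization called Myh1 and Myh8 probe 5937 higher, and the main fit called neither of them higher. The direction of Myh8 probe 5937 under quantile normalization is not read. Leaving out each array gave 2 to 3 on the normal diet, 3 on the high fat diet, 3 to 7 on average (7 without CTR-HFD replicate 3), and 0 in the diet comparisons and the interaction. Fewer values enter the authors' count, with 9 entries for the members. The share of all probes called under each alternative is not given, here or beside the list counts. A move of these counts is therefore not read as particular to the members or a list.

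On the normal diet, sign changes were, under quantile normalization, Myh4 0.068, Myh8 probe 5937 0.10, Myl1 0.011, Tnnc2 0.11 and Tnnt3 0.066. Under normexp they were Myh3 probe 5779 -0.075, Myh8 probe 5937 0.033, Runx1 -0.076 and Tnnc2 0.047, and in the authors' values Myh4 0.025, Myl1 0.011, Tnnc2 0.085 and Tnni2 0.066. On the high fat diet they were Myh8 probe 5937 0.069 and Tnnc2 0.040 under quantile normalization, and Myl1 0.00212, Tnnc2 0.029 and Tnni2 0.042 in the authors' values. Tnni2, number 2 by brightness on all arrays, is counted with them at 3.52e-05 and 5.0e-06 under quantile normalization, which is about 0 by construction and no change of direction. Nor is the direction of Myh8 probe 5937 read under quantile normalization, for its brightness. Other bright probes were Tnnt3 at number 7 to 33, Tnnc2 at 11 to 33, Myh4 at 33 to 55 and Myl1 at 34 to 62. How far their brightness limits their values under quantile normalization was not tested. On the high fat diet, leaving out each array gave -0.091 to 0.48 for Myh1, -0.16 to 1.42 for Myh2, -0.063 to 1.13 for Myh6 probe 6003 and -0.24 to 0.73 for Myh7b, lowest without CTR-HFD replicate 4 and highest without CTR-HFD replicate 3, and without CTR-HFD replicate 2 Myh7b was at -0.019.

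With the replicate number as a block, Myh4 was at -0.33 (adjusted p 0.0108) and -0.50 (0.00131) and Myh8 probe 477 at -1.01 (0.00011) and -1.32 (3.55e-05). This block ended the calls of Tnnt3 on the normal diet (0.0527) and Prkag3 on the high fat diet (0.0553) and changed no other call, and the slide as a block ended that of Tnnt3 (0.0557). Fitting only the arrays compared ended 10 calls, on the normal diet Actn2 (0.056) and Tnnt3 (0.0574), and on the high fat diet Myh8 probe 5937 (0.0527), Actn2 (0.0896), Myl6b (0.052), Prkag3 (0.147), Prox1 (0.112), Tbx15 (0.0835), Tead1 (0.0879) and Trim63 (0.0747), and added Atp2a2 (0.0325) and Tnnc1 (0.0419) on the normal diet.

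On the normal diet, Myh8 probe 5937, Tnnc2 and Atp2a2 were called with an intensity trend (0.0358, 0.0356 and 0.042), with array weights (0.0387, 0.0427 and 0.0317) and among probes well above background on all arrays (0.0417, 0.0416 and 0.0442). The intensity trend ended the call of Prox1 on the high fat diet (0.0534). With no filter on dim probes, the calls of Actn2 (0.0606) and Tnnt3 (0.0638) on the normal diet and Actn2 (0.0523) and Prkag3 (0.0528) on the high fat diet ended.

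As a check of pairing, the group-centred values of arrays with the same number had a correlation of -0.21 to 0.54, over 0.1 in 19 of 27 pairs, and in 16 of 27 the partner with the same number was the closest, where reading the numbers as pairs needed all 27 over 0.1. The numbers equal the slide on every array but CTR-HFD replicate 4, and the fit without a block leaves that out. Between CTR-NCD and AR113Q-NCD all 5 pairs were over 0.1 (0.24 to 0.45), each with its own number the closest. Probes of low signal limit what can be read from Myh6 probe 308, Myh8 probe 2202 and Prox1.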
